A study of Homo sapiens with 6 samples.

Results

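The 37 genes described here encode the machinery of cell division: the mitotic cyclins and their kinase, the mitotic and checkpoint kinases, the kinetochore, the spindle motors and the proteins of cytokinesis. They were chosen by name, as those genes of the measured table whose symbol is on a fixed list of mitotic genes, and all 37 of 37 had a value among 34675 genes in all. The rule itself uses no measured value. Gene expression was measured by RNA sequencing in U2932, a human line established from diffuse large B cell lymphoma. The 3 knockdown samples were infected with a short hairpin RNA against PRDM11, a PR domain family gene, and the 3 control samples with a scrambled hairpin. All 6 samples were selected with puromycin for 3 days, and the knockdown rests on 1 hairpin construct as the labels give it.

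The measurements came as 1 comparison between conditions called A and B, and no header or label ties either of them to a hairpin. Differences below are therefore those of condition A relative to condition B and are not assigned to the knockdown. PRDM11 itself had 268, 272 and 323 normalised reads in the libraries of condition A, against 565, 516 and 545 in those of condition B. The authors' deposited table gave it a log2 ratio of -0.91 with an adjusted DESeq p of 1.76e-08. PRDM11, the target of the hairpin, was thus lower in condition A. The conditions carry no label that this could check, and none was assigned from it. A normalised read is a read count divided by the size factor of its library. Per-library values were recovered as whole reads from the printed means, and the library numbers do not correspond to replicate numbers. The recovered reads came to 33825787, 28586427 and 21863788 in condition A, against 30536965, 28943789 and 26079143 in condition B, from genes that hold 64.1% and 66.1% of the summed mean of A and B. All 7 B cell markers were present, with means from 1792 to 77769 normalised reads in the authors' deposited table, and MS4A1, which encodes CD20, was the highest. Their sum was 224195 in condition A, against 194555 in condition B, in that deposited table of the authors. Of the 7 T and NK cell markers 5 had a value, and over these and the 5 myeloid markers the highest was CD4 at 47.4, while of 6 epithelial and fibroblast markers EPCAM reached 1263, per the authors' deposited table. Since nothing in the labels describes separate cultures, p-values measure the spread between these libraries, which may be technical. In bulk RNA, fewer cells in mitosis and less RNA per cell cannot be told apart.

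Entry into mitosis is driven by CDK1 bound to cyclin B, and the Aurora and Polo-like kinases build the bipolar spindle. Kinetochores assembled on the centromere attach chromosomes to microtubules, and the spindle checkpoint holds back the anaphase-promoting complex until every chromosome is attached. Transcripts of these genes accumulate together in G2 and M phase, and many of their promoters carry a CHR element, bound by the MuvB complexes, together with CCAAT boxes bound by NF-Y. In an asynchronous lymphoma culture their summed level is often read as a measure of proliferation.

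The shared promoter elements were read from the RefSeq windows of build GRCh38.p14, in the 250 bases before each annotated start. Windows were found for 30 of the 37 genes, 33 in all because 3 genes have 2 starts. The searched letters were TTTGAA for the CHR element, TTCGAA for its variant, CCAAT for the CCAAT box, and TTTCGCG and GCGGGAA for sites like those of E2F, each on both strands and with overlaps between motifs allowed. TTTGAA was present in 20 of the 33 windows (60.6%), against 13.3% of 35116 windows of all genes. CCAAT was present in 27 (81.8%), against 32.0% of all windows, and 17 windows (51.5%) held both, against 4.69%. At least 2 CCAAT boxes were found in 16 windows (48.5%), against 9.53%. TTTGAA lay within the last 100 bases in 14 windows (42.4%), against 4.61%. Of the E2F type, TTTCGCG was in 1 window (3.03%), against 1.10% of all windows, and GCGGGAA in 2 (6.06%), against 5.52%. TTCGAA was found in 0 of the 33 windows, against 1.19% of all windows.

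The last 120 bases before the start are printed for 6 genes that span the range of the results, 4 with ratios among the largest in either direction and both B-type cyclins, to show elements shared by genes whose ratios differ. Capitals mark TTTGAA and CCAAT in either orientation, so that TTCAAA and ATTGG are the reverse strands. A CHR element sits downstream of CCAAT boxes in PLK1, CCNB2 and CDK1, and the CDK1 stretch holds 2 of each. CDK1 has 2 annotated starts, and the last 120 bases before the other, chr10:60778211-60778330, hold neither TTTGAA nor CCAAT and are not printed. Of these letters, the stretches of KIF20A and CCNB1 hold CCAAT boxes alone and that of CENPA the CHR element alone. Coordinates are chr5:138178992-138179111 for KIF20A, chr2:26785936-26786055 for CENPA, chr16:23678769-23678888 for PLK1, chr10:60778358-60778477 for CDK1, chr5:69167030-69167149 for CCNB1 and chr15:59105026-59105145 for CCNB2, all on the plus strand.
KIF20A: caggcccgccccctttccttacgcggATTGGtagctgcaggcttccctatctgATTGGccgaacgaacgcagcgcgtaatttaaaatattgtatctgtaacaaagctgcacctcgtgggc
CENPA: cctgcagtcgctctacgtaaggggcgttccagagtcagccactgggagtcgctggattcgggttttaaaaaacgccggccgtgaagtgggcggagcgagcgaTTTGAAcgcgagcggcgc
PLK1: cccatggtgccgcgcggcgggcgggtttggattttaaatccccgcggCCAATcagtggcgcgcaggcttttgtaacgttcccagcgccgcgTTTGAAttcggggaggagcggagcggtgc
CDK1: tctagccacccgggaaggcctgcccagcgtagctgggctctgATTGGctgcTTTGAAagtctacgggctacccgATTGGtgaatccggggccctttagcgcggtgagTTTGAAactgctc
CCNB1: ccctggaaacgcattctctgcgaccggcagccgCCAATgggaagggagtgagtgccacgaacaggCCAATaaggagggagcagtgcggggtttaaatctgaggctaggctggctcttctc
CCNB2: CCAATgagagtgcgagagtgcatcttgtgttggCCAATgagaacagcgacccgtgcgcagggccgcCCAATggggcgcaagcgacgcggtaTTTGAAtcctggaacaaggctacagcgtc

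As a group the mitotic genes had high read counts and showed small differences between conditions A and B. In the authors' deposited table, 0 of the 37 passed an adjusted DESeq p of 0.05. That table called 2.54% of all genes (0.966% higher and 1.57% lower in condition A) and 4.64% of those with a mean of 1500 normalised reads or more, a level that all 37 reached. At an adjusted p of 0.1 it held 1 member, KIF20A, against 3.46% of all genes. At an unadjusted p under 0.05 the same deposited table held 4 of them (10.8%), KIF20A, CENPA and CENPF with a higher and CDK1 with a lower mean in condition A, against 18.8% of genes at that level. No member differed by 1.5-fold or more, and 17 had a log2 ratio within 0.1 of 0 in the authors' deposited table. Of the 37, 25 lay above and 12 below 0 there, with a median log2 ratio of 0.05, against 0.03 for all genes at or above that level. The median size of the deposited log2 ratio, whatever its sign, was 0.11 for the mitotic genes and 0.14 for those genes.

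Fitted to the recovered reads, limma with Benjamini-Hochberg adjustment over 17084 genes called 2 of the 32 members that could be tested (6.25%). KIF20A was higher and CDK1 lower in condition A, against 9.23% of all genes called (3.9% higher and 5.32% lower) and 9.96% of those at a mean of 1500 or more. The libraries of condition A lay all above or all below those of condition B in 8 of 32 members (25%), against 34.5% of genes at that level. The other 5 members, PLK1, MKI67, TPX2, NUSAP1 and TOP2A, have means above 10000 for which the libraries of condition A could not be settled, and they are given by their means there. The limma count depends on single libraries: it was 5 of 32 (15.6%) when A library 3 was left out, against 9.75% of all genes. It was 0 when A library 2, B library 2 or B library 3 was left out, against 2.16%, 2.17% and 2.21% of all genes.

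**Figure D1:**
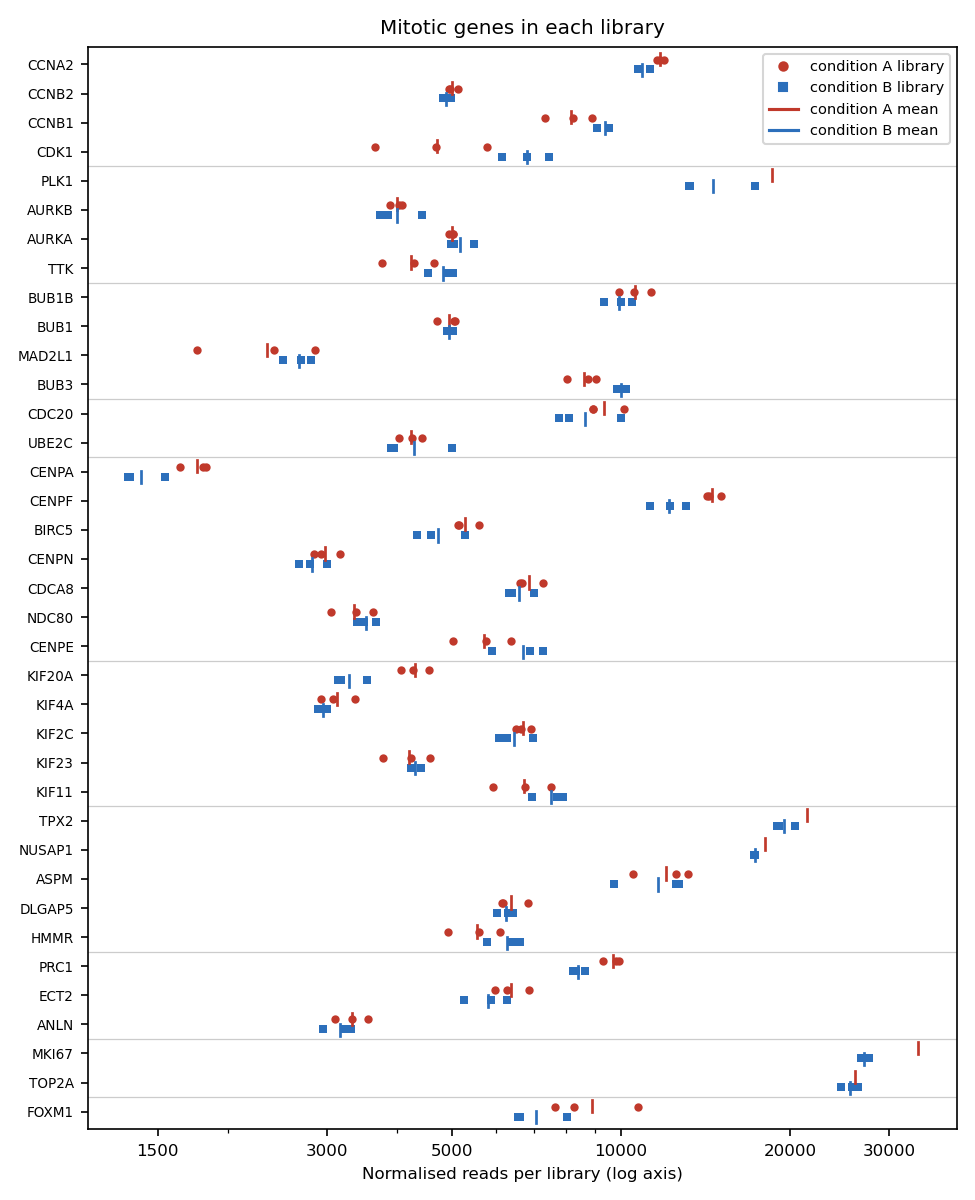
Normalised reads on a log axis for the 37 mitotic genes, grouped by role, with 1 point per settled library and a tick at the mean of each condition (condition A red, condition B blue). PLK1, MKI67, TPX2, NUSAP1 and TOP2A have no points for condition A because its libraries could not be settled. For most genes the points of both conditions overlap; the 3 libraries of condition A lie clear of those of condition B in KIF20A, CENPA, CENPF, PRC1 and CCNA2 on the higher side and in CDK1, BUB3 and CCNB1 on the lower side.

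CDK1, the kinase that drives entry into mitosis, had 5790, 4698 and 3647 normalised reads in the libraries of condition A, against 6157, 6803 and 7450 in those of condition B. The conditions did not overlap, but the libraries of A spread over a wider range than those of B. CDK1 fell by 0.55 ± 0.15 on the log2 scale (SE), with an adjusted p of 0.044 in limma, and its adjusted p in the authors' deposited table was 0.195. It kept that limma call without library 1 or library 3 of condition A and lost it without library 2 of A (adjusted p 0.126) or libraries 1, 2 or 3 of condition B (0.0689, 0.140 and 0.158). Its coding intervals span chr10:62539924-62553730 (hg19). Cyclin B1, its activating partner encoded by CCNB1, had 8875, 8216 and 7342 in condition A, against 9534, 9080 and 9549 in condition B. Every library of A was lower than every library of B, with a limma log2 ratio of -0.21 ± 0.08 and an adjusted p of 0.137, or a ratio of -0.14 with A library 3 left out.

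The ratios of the other cyclins were closer to 0. CCNB2, the paralogue of CCNB1, had 5135, 4958 and 4945 in condition A, against 4987, 4832 and 4836 in condition B. The ranges overlap, and the limma log2 ratio was 0.04 ± 0.07. CCNA2, which encodes cyclin A2 and acts from S phase into early mitosis, had 11923, 11745 and 11603 in condition A, against 11270, 10724 and 10742 in condition B, a limma log2 ratio of 0.11 ± 0.07 with an adjusted p of 0.319. The ranges did not overlap. CCNB1 and CCNB2 lay on opposite sides of 0, and the difference between their ratios was not tested.

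Among the mitotic kinases, PLK1, the Polo-like kinase of spindle assembly and cytokinesis, had the largest deposited ratio. The authors' deposited table gave it a mean of 18586 in condition A, against 14617 in condition B, and an adjusted p of 0.761. The libraries of condition B had 17344, 13294 and 13212, so 1 of them lay well above the other two. AURKB, the kinase of the chromosomal passenger complex, had 3892, 4083 and 4038 in condition A, against 4431, 3730 and 3847 in condition B. AURKA, the centrosomal Aurora kinase, had 4947, 5032 and 5038 in condition A, against 5470, 4996 and 5054 in condition B. The ranges of both Aurora kinases overlapped between conditions, with limma log2 ratios of 0.00 ± 0.08 for AURKB and -0.05 ± 0.07 for AURKA. TTK, the checkpoint kinase also called MPS1, had 4657, 4278 and 3762 in condition A, against 4543, 4928 and 5037 in condition B. Its ranges overlapped, with a limma log2 ratio of -0.20 ± 0.09 and an adjusted p of 0.2004, and the ratio was -0.11 with A library 3 left out.

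The spindle checkpoint genes lay on both sides of 0. BUB3, which recruits the BUB kinases to kinetochores, had 9018, 8738 and 8032 in condition A, against 9924, 9848 and 10210 in condition B, without overlap, and a limma log2 ratio of -0.22 ± 0.07 with an adjusted p of 0.085. MAD2L1, which encodes the checkpoint effector MAD2, had 2852, 2420 and 1759 in condition A, against 2504, 2701 and 2813 in condition B. Its first library of condition A was the highest of all 6 and the third was the lowest, so the ranges overlapped and the limma adjusted p was 0.378. Its limma log2 ratio was -0.22 ± 0.15 with all libraries, -0.37 without A library 1 and -0.02 without A library 3. BUB1B, which encodes BUBR1, had 11327, 10559 and 9932 in condition A, against 9340, 10001 and 10470 in condition B. BUB1, its paralogue and a checkpoint kinase, had 5070, 4716 and 5052 in condition A, against 5024, 4911 and 4902 in condition B. Both overlapped between conditions, with limma log2 ratios of 0.09 ± 0.08 for BUB1B and -0.00056 ± 0.071 for BUB1.

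Genes that act with the anaphase-promoting complex overlapped between conditions as well. CDC20, its mitotic activator, had 8934, 8939 and 10130 in condition A, against 10007, 7762 and 8097 in condition B, with a limma log2 ratio of 0.12 ± 0.10. That ratio ranged from 0.05 without B library 2 to 0.23 without B library 1, and was 0.06 without A library 3 and 0.08 without B library 3. The pseudogene CDC20P1 was listed by the authors' deposited table at a mean of 1306 in condition A, against 1163 in condition B, so reads could be split between the copies. For UBE2C, its ubiquitin-conjugating enzyme, the authors' deposited table gave a log2 ratio of -0.02.

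The kinetochore and centromere genes lay on both sides of 0, with 5 of 7 above it in the authors' deposited table. CENPA, the centromeric histone H3 variant, had 1804, 1830 and 1644 in condition A, against 1543, 1337 and 1327 in condition B. The conditions did not overlap, with a limma log2 ratio of 0.33 ± 0.09 and an adjusted p of 0.050, just over the threshold. The authors' deposited table gave it an adjusted p of 0.138. In limma CENPA passed without library 3 of condition A (0.0214) or library 1 of condition B (0.0371), and with a pseudocount of 5 in place of 1 (0.0494), which brought the count of members called to 3 of 32. Its span overlaps SLC35F6 on the same strand, which was at 1407 normalised reads, so reads could be shared. CENPF, a kinetochore protein of the outer plate, had 15052, 14331 and 14237 in condition A, against 11263, 12227 and 13048 in condition B. All 3 libraries of A were higher than all 3 of B, with a limma log2 ratio of 0.26 ± 0.08, a limma adjusted p of 0.059, or 0.0455 without library 3 of condition A. Its adjusted p was 0.308 in the authors' deposited table.

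CENPE, the kinetochore kinesin that carries chromosomes to the metaphase plate, ran the other way. It had 6368, 5753 and 5034 in condition A, against 5907, 6887 and 7270 in condition B, with overlap, a limma log2 ratio of -0.23 ± 0.11 and an adjusted p of 0.199, or a ratio of -0.14 with A library 3 left out. BIRC5 and CDCA8, which encode survivin and borealin of the passenger complex with AURKB, had limma log2 ratios of 0.16 ± 0.09 and 0.06 ± 0.08. NDC80, the microtubule-binding kinetochore core, and CENPN, which reads centromeric nucleosomes, had -0.07 ± 0.08 and 0.08 ± 0.08.

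KIF20A, also called MKLP2, moves the passenger complex to the central spindle. It had 4069, 4265 and 4560 in condition A, against 3539, 3142 and 3178 in condition B. The lowest library of A was above the highest of B, and KIF20A rose by a log2 ratio of 0.39 ± 0.08, with a limma adjusted p of 0.020. The authors' deposited table gave it 0.0527, the smallest adjusted p of the 37. Without library 2 of condition A the limma adjusted p was 0.0938, and without library 2 or 3 of condition B it was 0.108. Its coding intervals span chr5:137515370-137523099 (hg19). Genes on the opposite strand overlap it, BRD8 at 3661 and CDC23 at 3353 normalised reads against 3792 for KIF20A, and the strand setting of the counting was not given, so their reads cannot be told apart with certainty. The other kinesins overlapped between conditions. Limma log2 ratios were 0.08 ± 0.08 for KIF4A of chromosome arms, 0.06 ± 0.08 for the microtubule depolymerase KIF2C, -0.04 ± 0.09 for KIF23 of the midbody and -0.16 ± 0.10 for KIF11, the motor of spindle bipolarity.

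Spindle assembly and cytokinesis genes gave small ratios. TPX2, the activator of AURKA on microtubules, had a mean of 21486 in condition A, against 19508 in condition B, and NUSAP1, a microtubule bundler, one of 18053 in A against 17304 in B, both from the authors' deposited table. In condition B the libraries of TPX2 had 20459, 19135 and 18929 and those of NUSAP1 17344, 17281 and 17285. ASPM, at the spindle poles, had a limma log2 ratio of 0.05 ± 0.12, DLGAP5 (HURP) one of 0.03 ± 0.08 and HMMR one of -0.18 ± 0.09. PRC1, which cross-links the central spindle, had 9942, 9817 and 9284 in condition A, against 8630, 8333 and 8210 in condition B, with no overlap, a limma log2 ratio of 0.21 ± 0.07 and an adjusted p of 0.087, or 0.0494 without library 3 of condition A. ECT2, the exchange factor that sets the cleavage plane, had 0.14 ± 0.09 and ANLN, anillin of the contractile ring, 0.07 ± 0.08.

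MKI67, the proliferation antigen Ki-67 that coats mitotic chromosomes, had the highest mean of the 37, before any correction for length. The authors' deposited table gave it a mean of 33734 in condition A, against 27077 in condition B, a log2 ratio of 0.32 and an adjusted p of 0.561. The libraries of condition B had 27608, 26809 and 26813. Since those of A could not be settled, limma was not fitted to this gene. Only the authors' deposited DESeq p (0.0584 unadjusted) sets the difference against the spread of the libraries. TOP2A, topoisomerase II alpha, had a deposited mean of 26128 in condition A, against 25607 in condition B, per the authors' deposited table. FOXM1, the transcription factor that activates many G2 and M genes with MuvB, had 7650, 8265 and 10721 in condition A, against 8023, 6559 and 6625 in condition B. Its ranges overlapped, because the first library of B was above the lowest of A, with a limma log2 ratio of 0.32 ± 0.13 and an adjusted p of 0.138. With A library 3 left out the ratio was 0.18. RHNO1 overlaps FOXM1 on the opposite strand at 2620 normalised reads.

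**Figure D2:**
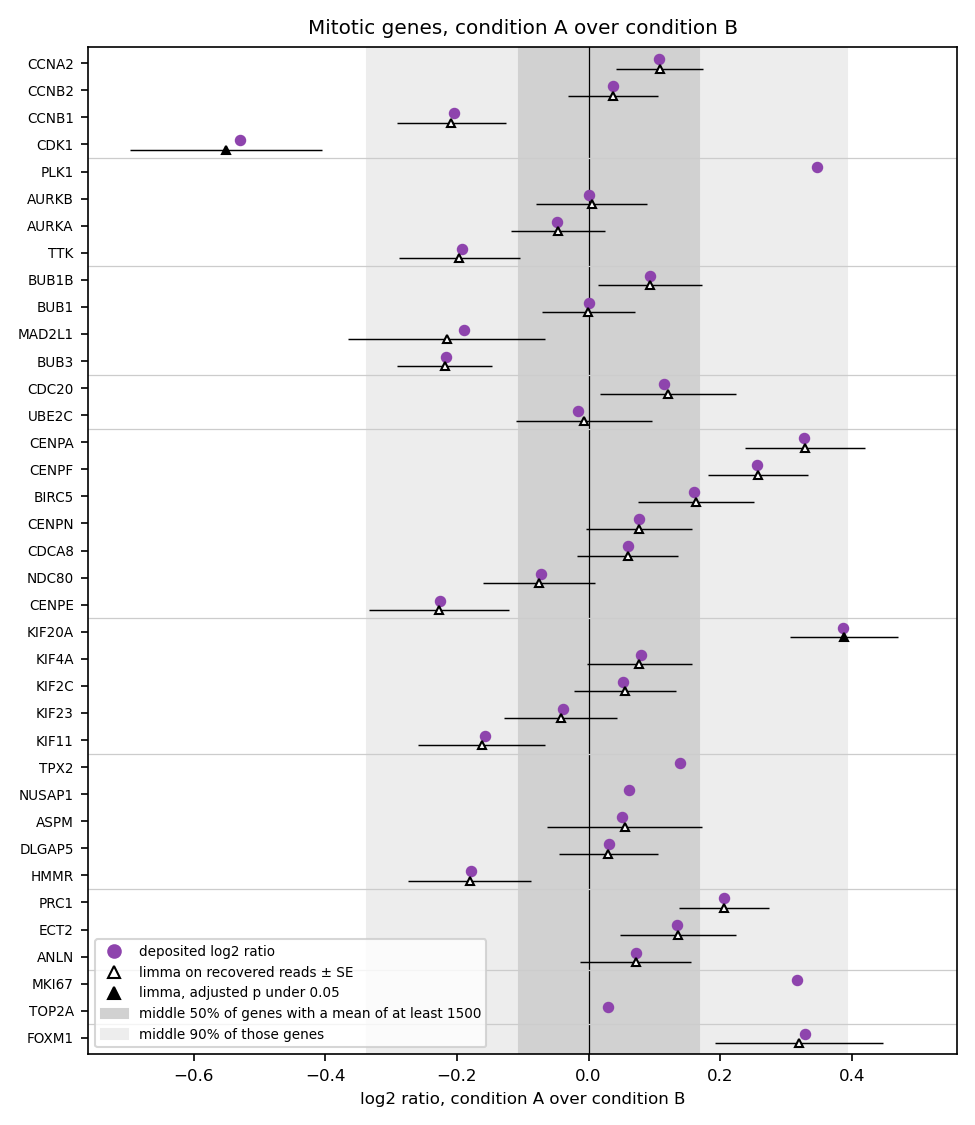
Log2 ratio of condition A over condition B for the 37 mitotic genes by role, as deposited (purple) and fitted by limma on recovered reads with its standard error (triangles, filled where the adjusted p is under 0.05). Grey bands hold the middle 50% and 90% of genes whose mean was 1500 or more. KIF20A at 0.39 and CDK1 at -0.55 carry the 2 filled triangles, and the 5 genes without a triangle lack settled libraries in condition A.

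Differences between some libraries of the same condition followed the base composition of the transcript. The GC content of 1 GENCODE transcript per gene was from 35.3% for CENPE to 57.9% for CDC20, with a median of 43.2%. Across the members, which share libraries and are not independent, the log2 ratio of library 3 over library 1 of condition A correlated with GC content at Pearson r 0.78 and Spearman rho 0.82 (32 genes). The ratio of library 1 over library 3 of condition B gave r 0.88 and rho 0.89 (37 genes). Other coding genes at a mean of at least 1500 gave r 0.72 and 0.75 for these same comparisons. Library 2 over library 1 of condition A gave r 0.75 over the members, while library 2 over library 3 of condition B gave r 0.30 over the members and 0.17 over the other coding genes. The comparison of conditions gave r 0.57 and rho 0.57 over the 37 members, against 0.32 and 0.36 over 5702 other coding genes, and transcript length gave r 0.04.

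The 19 members at or under the median GC had a median log2 ratio of -0.04, with 9 above and 10 below 0. The median was -0.05 for 1731 other coding genes in that GC range, with 660 above and 1071 below 0. The 18 members over it had a median of 0.10, with 16 above and 2 below 0. The median was 0.06 for 2812 others in their range, of which 1757 also lay above 0 and 1055 below. CDK1 has a GC content of 36.96% and MAD2L1 39.4%, and both had their largest gap inside condition A between libraries 1 and 3. Their log2 ratios of library 3 over library 1 were -0.67 and -0.70. The median was -0.27 over members at or under the median GC and -0.24 over other coding genes in that range. CENPE, with the lowest GC content of the members, had -0.34. Why CDK1 and MAD2L1 had wider gaps was not tested. PLK1, FOXM1 and CDC20, at 55.6% to 57.9%, each had the first library of condition B as the highest of its 3.

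**Figure D3:**
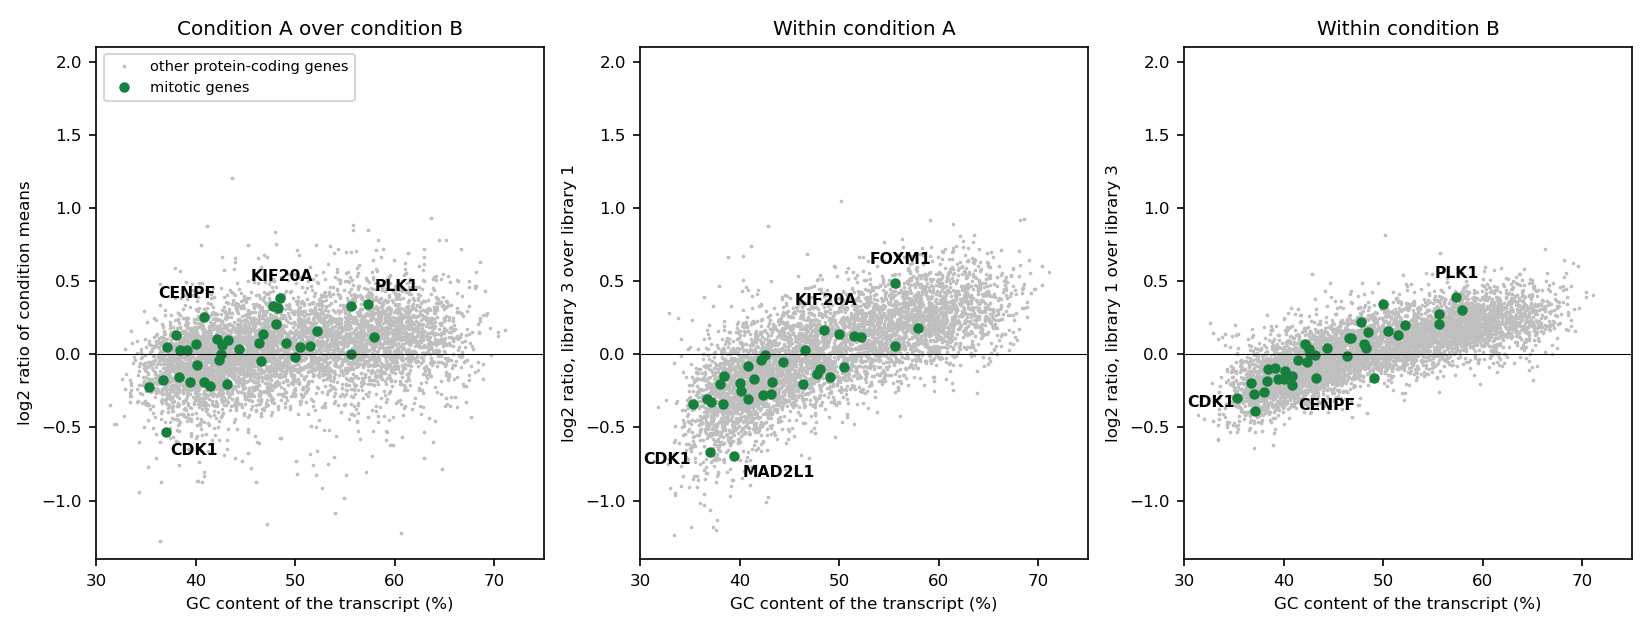
Log2 ratios against transcript GC content for the mitotic genes (green) and other protein-coding genes whose mean was 1500 or more (grey): conditions A over B (left), library 3 over library 1 of condition A (middle) and library 1 over library 3 of condition B (right). All 3 panels slope upward, and on the left CDK1 is at -0.53 and KIF20A at 0.39. Deposited log2 ratios of all genes whose mean was 1500 or more ran from -1.28 to 1.96, so neither value is at an end of that range.

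The trend was therefore removed within each library, an alternative chosen after the trend had been seen. In that fit limma called 8 of 32 members (25%), against 20.3% of all genes (10% higher and 10.3% lower) and 28% of those at a mean of 1500 or more. KIF20A, CENPA, CENPF, ECT2, PRC1, FOXM1 and ASPM rose and CDK1 fell. The corrected log2 ratios were 0.37 ± 0.06 for KIF20A, 0.33 ± 0.06 for CENPF, 0.32 ± 0.07 for CENPA, 0.27 ± 0.08 for FOXM1, 0.25 ± 0.06 for ECT2 and -0.42 ± 0.08 for CDK1. CENPE and HMMR, 2 of the members with the lowest GC content, stood at -0.06 ± 0.05 and -0.04 ± 0.05 after it. The median over the 32 members was 0.06. Their corrected log2 ratios still correlated with GC content at Pearson r 0.25. That correlation was 0.07 over 5189 other coding genes at a mean of at least 1500.

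In condition A library 1 was the highest for most mitotic genes and library 3 the lowest for most. In condition B the highest place was divided between libraries 1 and 3. Library 1 of condition A was the highest of its 3 in 23 of 32 members (71.9%). That share was 58.7% over 121 other mitotic genes and 42.7% over genes whose mean was 1500 or more. Library 3 was the lowest in 22 members (68.8%), against 58.7% and 43.3%. These shares were not matched for GC content. For 17 members at or under their median GC, the median log2 ratio of library 3 over library 1 was -0.27. It was -0.24 for 1618 other coding genes in that GC range. In condition B the shares are set against genes whose mean was 1500 or more. Library 1 was the highest in 18 of 37 members (48.6%, against 51.7%) and the lowest in 15 (40.5%, against 39.9%). Library 3 was the highest in 19 (51.4%, against 24.4%) and the lowest in 5 (13.5%, against 34.0%). Library 2 was the highest in 0, against 23.9%, and the lowest in 17 (45.9%, against 26.0%). Summed over the 32 members, the normalised reads were 208823, 199527 and 193768 in condition A, against 196335, 194934 and 201179 in condition B. The highest and the lowest of all 6 sums are both in condition A, so the conditions overlapped. Over all 37, the means of the authors' deposited table summed to 318692 in condition A (0.727% of the summed mean of all genes), against 301595 in condition B (0.721%).

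The spread between libraries was low for most members. The coefficient of variation had a median of 6.36% in condition A and 5.71% in condition B, against 7.74% and 6.14% for genes whose mean was 1500 or more. It was smallest for AURKA in condition A, at 1.02%, and for NUSAP1 in condition B, at 0.205%. MAD2L1 in condition A at 23.5% and PLK1 in condition B at 16.2% had the largest.

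Per length, PLK1 and NUSAP1 were the most abundant of the 37. PLK1 had 8346 normalised reads per kb of transcript in condition A, against 6563 in condition B, and NUSAP1 had 7494 in A against 7183 in B. Their order does not hold against the spread of PLK1 in condition B. Next came TPX2, with 5960 in A against 5411 in B, and CDC20, with 5253 in A against 4852 in B. At the other end stood MAD2L1, with 429 in condition A against 489 in condition B, below ANLN at 695 in A against 661 in B.

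**Figure D4:**
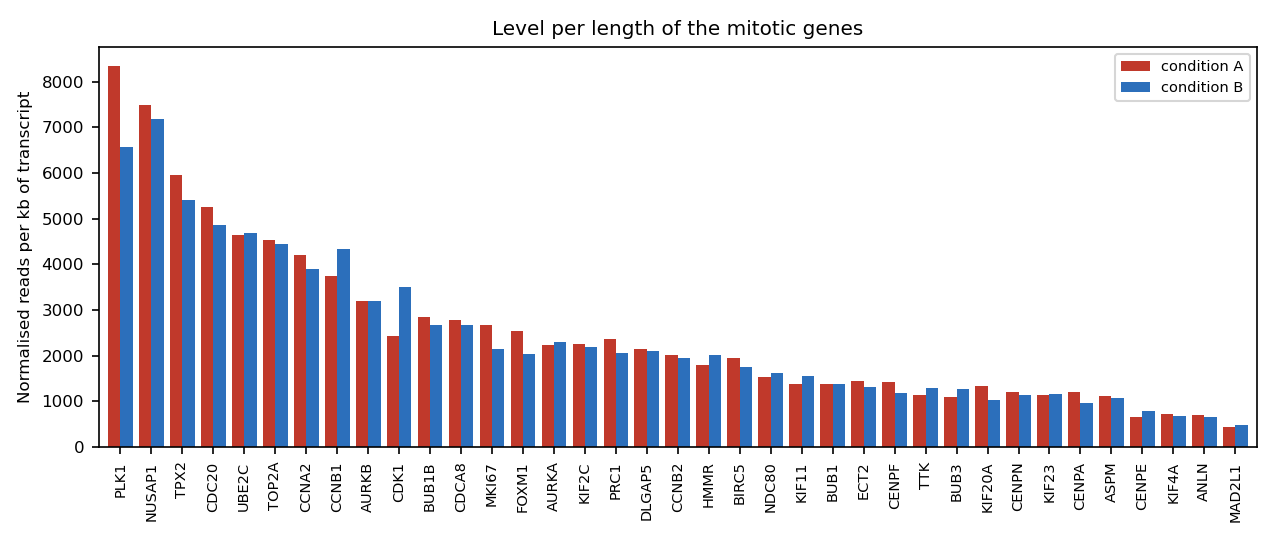
Normalised reads per kb of transcript for the 37 mitotic genes, ordered by mean level, with condition A (left bar of each pair) and condition B (right bar) as deposited means divided by the length of 1 GENCODE transcript. PLK1 and NUSAP1 stand above 6500 reads per kb and MAD2L1 below 500, and no pair of bars differs by 1.5-fold.

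The rest of the mitotic machinery was taken from a list of 137 further symbols, of which 128 had a value. The authors' deposited table had 0 of the 128 under an adjusted p of 0.05. That table gave 20 of them (15.6%) an unadjusted p under 0.05, 14 higher and 6 lower in condition A, against 9.61% of all genes and 18.8% of those at a mean of 1500 or more. Their median log2 ratio was 0.04. With limma on recovered reads, 7 of 121 rose and 1 fell (6.61% in all), against 9.23% of all genes. The count of 8 became 19 (15.7%) when A library 1 was left out, against 13.2% of all genes, and 1 (0.826%) when A library 2 was left out, against 2.16%. It became 0 when B library 2 or 3 was left out, against 2.17% and 2.21% of all genes. TACC3, which stabilises kinetochore fibres with clathrin, had 10743, 10798 and 11627 in condition A, against 9375, 7971 and 8168 in condition B, a limma log2 ratio of 0.38 with an adjusted p of 0.021. CCNB3, a meiotic B-type cyclin, had 130, 101.4 and 139 in condition A, against 80.7, 75.2 and 79.9 in condition B, with 0.63 and 0.030. Neither gene overlapped between the conditions. PMF1 and SKA3 of the outer kinetochore, CCNF (cyclin F), CDC25A, the phosphatase that activates CDKs, and TUBG1 (gamma tubulin) also rose, by 0.39, 0.34, 0.32, 0.29 and 0.52 in limma. CENPI, of the inner kinetochore, fell by 0.48. CDC25A and TUBG1 were named after their values were seen.

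Other cell cycle groups were set beside them. Among 36 DNA replication genes, the median log2 ratio was 0.12 in the authors' deposited table, with 30 above 0. Among 15 genes of G1 cyclins, CDKs and their inhibitors, CCND3, the cyclin D3 of B cells, fell to a mean of 9829 in condition A, against 13453 in condition B, with the authors' deposited table giving an adjusted p of 0.00316. Whether the mitotic genes differ from these groups was not tested.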

How the data were processed

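RNA from 3 knockdown and 3 control samples of U2932 was sequenced. Of the authors' work, the submitters' processing notes name the build hg19 and the tools DESeq 1.14.0, HTSeq 0.5.4p5 and STAR; the annotation release and strandedness were not stated in any source used. The deposited table holds for each gene means per condition, a signal in reads divided by size factors by the authors, and the authors' fold, its log2, a p-value and its adjusted p-value; 17231 symbols came from it. The deposited fold and log2 are condition B over condition A, and the sign is turned here. A deposited hg19 track gives the authors' score per coding interval and was used only for positions, with starts counted from 1, a reading that gave whole codons for 92.5% of 1348 single coding intervals; no column of values per sample was left out (0).

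Conditions A and B were not assigned to a label. Each mean is a sum of 3 whole reads with fixed weights, so library reads were recovered by an integer search; means over 1500 were accepted with libraries at 0.5 to 2 times the mean, and over 10000 at 0.7 to 1.4 times. On simulated means no recovered gene was wrong (0), but above 10000 only 49.7% of condition A genes were recovered. The simulation used the same weights and a spread that mostly kept libraries inside these limits. It therefore could not show errors from a wrong weight or from a real library outside the limits. Limma 3.58.1 in R 4.3.3 was fitted to log2(normalised reads + 1) for genes at a mean of 10 or more, with Benjamini-Hochberg adjustment. The design allowed for a count test had the table held counts per sample; it holds the comparison, so the authors' deposited adjusted p from DESeq gave the main calls. Libraries carry numbers by falling size factor only. GC content and lengths are those of 1 GENCODE 29 transcript per gene; all 37 members matched. GC trends were removed by a lowess curve with fraction 0.3 per library.

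Every member is named; values per library are given for the 6 largest increases and decreases, the 6 smallest deposited p, the 4 highest levels per length and 3 paralogue pairs. The members and lists were chosen with earlier results of these data known. Promoter letters are from RefSeq, GRCh38.p14. Alternatives tried were other adjustments, thresholds and pseudocounts, another centring, leaving out a library and the GC correction. A gene of the DNA replication list is not reported here.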

Additional observations from a re-analysis of the deposited data

How the results depend on the processing

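The median log2 ratio of the mitotic genes stayed at 0.02 to 0.06 in every alternative run. Members called were 0 of 37 as deposited, and 1 when p-values were adjusted over genes with a mean of at least 50. At an adjusted p of 0.1 there was 1, against 3.46% of all genes. Limma on recovered reads called 2 of 32, or 3 (9.38%, against 9.32% of all genes) with a pseudocount of 5. It called 8 with the GC trend removed, and 0 to 5 with each library left out. Of other mitotic genes the counts were 0, 4, 4, 8, 27 and 0 to 19 in that order, the last 3 of 121. The 27 stand against 20.3% of all genes called and 28% of those at a mean of 1500 or more. With A library 3 dropped the count was 9 (7.44%), against 9.75% of all genes. With B library 1 dropped it was 7 (5.79%), against 6.14%. No share of all genes is given for the adjustment over genes with a mean of at least 50. Limma over all genes called 369 genes without library 2 of condition A, 370 and 377 without libraries 2 and 3 of condition B, 2255 and 1666 when library 1 or 3 of A was left out, and 1049 when library 1 of B was, against 1576 with all. KIF20A was past the threshold in 3 of 6 such fits (adjusted p 0.0170 to 0.108; not without library 2 of condition A or libraries 2 and 3 of condition B) and CDK1 in 2 of 6 (0.00706 to 0.158, without library 1 or 3 of condition A). Genes with ratios near 0 changed sign: AURKB, at -0.0414 with the GC trend removed and -0.0443 to 0.0800 with a library left out (-0.00961 without A library 2, -0.00161 without A library 3 and -0.0220 without B library 3), and BUB1, at -0.00056 with limma at each of 3 pseudocounts and -0.0188 to 0.0334 with a library left out (-0.0162 without library 3 of A, -0.00559 and -0.00695 without libraries 2 and 3 of B); the cause was not tested. No paired analysis was possible because the recovered libraries carry no replicate number. Every test rests on 3 libraries per condition, which limits its precision.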
